A study of Mus musculus with 3 samples.

Results

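The 40 genes described here encode heat shock proteins, the cochaperones that work with them and the heat shock factors Hsf1 and Hsf2, out of 55536 genes in the deposited gene table. They were picked by name, and each of the 40 names matched a gene identifier in GENCODE M21. The list was selected on these data, with levels and differences between the libraries already known, so what follows on levels and libraries is a description. Where a test across all genes is counted over the members, nothing is read from the count. Of the 40, 7 were taken as heat-inducible (Hspa1a, Hspa1b, Hspb1, Hsph1, Dnajb1, Hsp90aa1 and Bag3) and 10 as constitutive and cytosolic (Hspa8, Hsp90ab1, Hspa4, Hspa14, Dnaja2, Dnajb2, Dnajb6, Dnajc2, Dnajc7 and Bag1). The other 23 comprise 6 members of the endoplasmic reticulum (ER), 5 of the mitochondrion, 6 Hsp90 cochaperones, 3 further cytosolic members, Hspa2 and both heat shock factors.

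Molecular chaperones bind unfolded or newly made proteins and let them fold. Hsp70 proteins bind and release their clients in a cycle driven by ATP, in which J proteins (the Dnaj genes) deliver clients and start hydrolysis, and exchange factors such as the Hsp110 and BAG proteins free the bound ADP. Hsp90 receives late folding intermediates, among them many kinases and steroid receptors, through cochaperones such as Stip1. Heat and other stress that unfolds protein in the cytosol releases the transcription factor Hsf1, which binds heat shock elements, arrays of alternating GAA and TTC units, and induces the inducible copies. Unfolded protein in the ER acts through a separate pathway, the unfolded protein response, on ER stress elements. In T cells, activation brings growth and new protein synthesis, and with it a greater need for chaperones.

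The cells were primary activated regulatory T cells from an adult male mouse of 9 weeks, of a strain named Foxp3GFP-DTRCD4CreERT2R26tdTomato, with the whole organism given as origin. Polyadenylated RNA was sequenced in 3 libraries, numbered as technical replicates 1, 2 and 3 of biological replicate 1, and they form the only group. No resting, unstressed or untreated cells were compared, how the cells were activated, sorted and handled is not given in the sources used here, and whether the alleles in the strain name were induced is not stated. Each SD given is over these 3 libraries (n = 3). Since they come from the same biosample, SDs and tests capture only how libraries vary, which may be a technical spread.

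The gene tables held 20783676, 21206219 and 18496690 estimated counts in replicates 1, 2 and 3, of which the 40 members took 0.802, 0.989 and 0.821%. Levels are given in TPM, a measure of transcript abundance per length that allows genes to be compared. Differences between libraries are given in CPM, counts scaled to the library total. Markers of the labelled cell type were present: all 6 of the regulatory T cell list and all 6 of the T cell list reached 1 TPM in every library, with summed levels of 2717 to 2961 TPM and 7874 to 8833 TPM. Markers of other cells were also detected. The 6 B cell markers summed to 49.1 to 54.1 TPM and the 7 myeloid markers to 21.7 to 32.3 TPM. Of the myeloid markers, 4 reached 1 TPM in every library. Lyz2 was the highest of these, at 15.7, 12.8 and 16.7 TPM in replicates 1, 2 and 3. S100a8 was at 0 in every library and S100a9 at 0 in replicates 1 and 3. The 6 erythroid markers summed to 910 to 1272 TPM. In these libraries of RNA pooled over cells, fewer cells expressing a gene and less RNA of it per cell cannot be told apart.

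The folding machinery was broadly expressed. A level of at least 1 TPM in all 3 libraries was met by 38 of the 40 members, and 17 averaged at least 100 TPM. Of the 14641 genes with at least 30 counts in all, 12286 and 1941 met these levels. Of the 9956 that averaged at least 100 counts, 9936 and 1920 did. The median of the 40 was 75.8 ± 14.1 TPM, beside 13.7 ± 0.48 TPM over the 14641 genes with at least 30 counts in all. Only Hspa1a and Hspb1 fell short of 1 TPM in some library. The most abundant member was Hspa8, the constitutive cytosolic Hsp70, which stood at rank 38 among all 55536 genes by mean TPM, followed by the constitutive Hsp90 gene Hsp90ab1 at rank 136. At the other end, Hspa2, Hsf2 and Hspb1 each had a mean under 3 TPM.

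**Figure D1:**
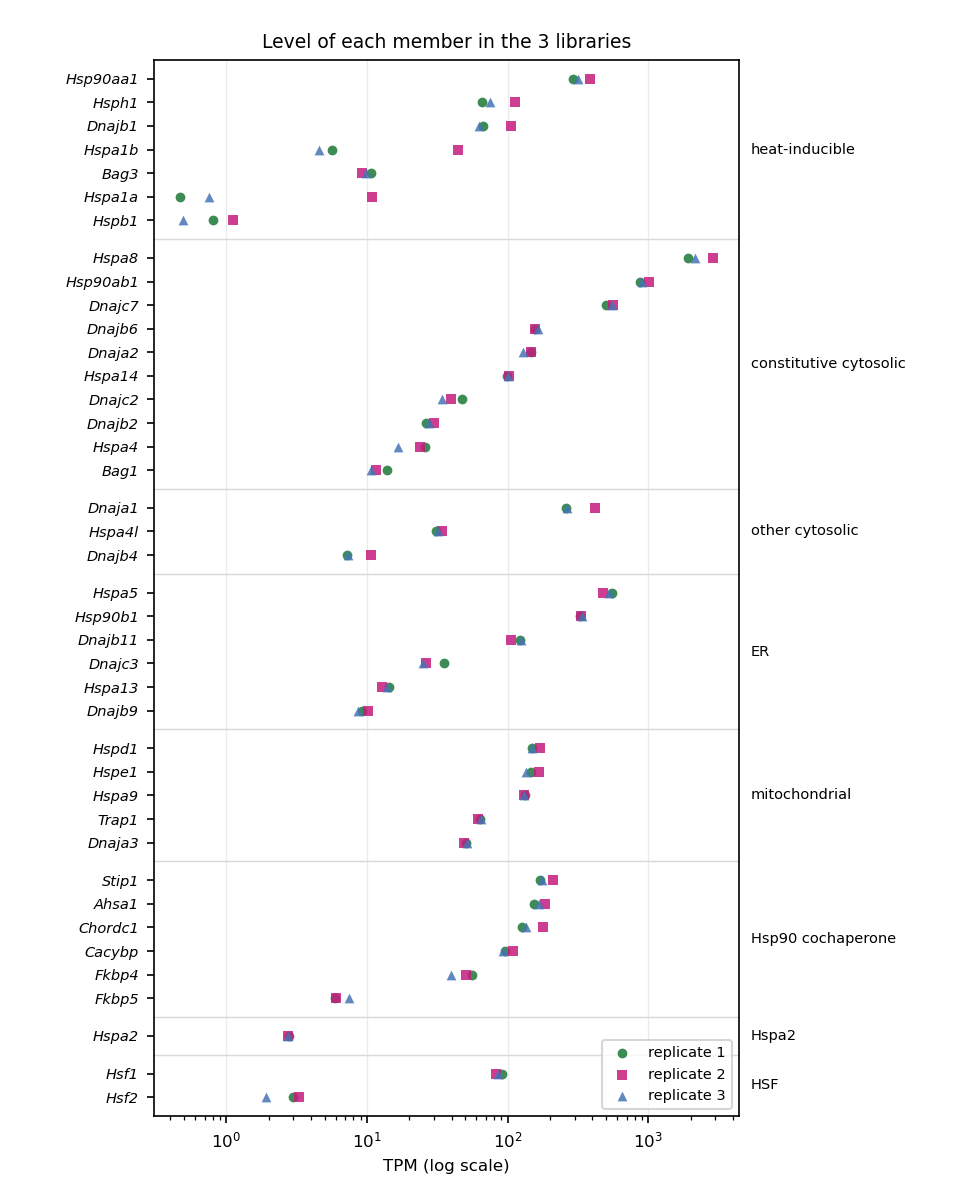
Level of each of the 40 members in TPM on a log axis, 1 point for each library, grouped by class and ordered by mean level within a class. Most members sit at nearly the same level in the 3 libraries, while Hspa1a and Hspa1b in replicate 2 stand at 10.8 and 44.3 TPM, far to the right of their points in the other libraries.

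Of the 40 members, the inducible cytosolic Hsp70 genes had the widest gap between libraries. Hspa1a and Hspa1b are single-exon genes that encode nearly the same protein, the stress-inducible Hsp70. Both lie on the minus strand of chromosome 17 of mm10, Hspa1b (ENSMUSG00000090877.3) at 34956436 to 34959238 and Hspa1a (ENSMUSG00000091971.3) at 34969190 to 34972156. Hspa1b was at 5.63, 44.3 and 4.54 TPM in replicates 1, 2 and 3. Hspa1a was at 0.47, 10.8 and 0.75 TPM in the same order. Replicate 2 was thus the high library for both copies, and the other libraries lay close to each other.

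Because the copies share most of their sequence, reads can be assigned to either of them. Their coding sequences are identical at 99.4% of aligned positions (1918 of 1929), while the sequences after the coding part are identical at 48.1%. Of all 50-base windows of the annotated transcripts, 62.3% of those of Hspa1b and 60.3% of those of Hspa1a also occur in another gene. The sum of both genes is therefore the safer measure. It was 223 estimated counts in replicate 1, 2128 in replicate 2 and 173 in replicate 3, or 10.7 CPM (95% exact Poisson interval 9.37 to 12.2), 100.4 CPM (96.1 to 104.7) and 9.37 CPM (8.01 to 10.9). The sum in replicate 2 was 9.36 times that in replicate 1 (95% exact binomial interval 8.14 to 10.8) and 10.7 times that in replicate 3 (9.19 to 12.6). Replicate 1 stood at 1.14 times replicate 3, with an interval of 0.936 to 1.41 that includes no difference. The intervals describe counting error alone and not differences in how libraries were prepared. No molecular identifiers are named that would tie reads to single molecules, so a molecule may have been counted more than once.

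The second deposited gene table, which holds fewer counts per library, listed 25, 208 and 21 counts for the sum in replicates 1, 2 and 3, with replicate 2 again the high library. Hspa1a made up 8.10% of the sum in replicate 1, 20.6% in replicate 2 and 14.9% in replicate 3. A gene annotated on the opposite strand, Gm20481, overlaps Hspa1a. Whether strand was used in counting is not stated, so reads of that gene and of Hspa1a cannot be told apart. Among the 9956 genes with a mean count of 100 or more, Hspa1a ranked 2 and Hspa1b ranked 3 by the ratio of replicate 2 to the higher of the other libraries, behind the immunoglobulin segment Igkv1-135, which had 0, 17.5 and 0.216 CPM. Both were also among the 5 genes of that depth with the largest ratio of highest to lowest library; 3 genes listed at 0 in some library, Igkv1-135 among them, have no such ratio and were left out. The other 3 were Gm6565 with 9.87, 0.000943 and 8.15 CPM, Ighg2c with 1.33, 1.73 and 13.6 CPM, and Cd109 with 11.3, 1.13 and 6.38 CPM. Hspa1a reached a mean count of 100 only through replicate 2, with 18, 438 and 26 estimated counts in replicates 1, 2 and 3. Since the filter favours genes high in 1 library and the members were chosen with this contrast known, nothing is read from these ranks.

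The start regions of both genes are shown from 250 bases before to 50 after the annotated start (RefSeq, GRCm38.p6), because they are nearly the same sequence. They were identical at 296 of 300 positions (98.7%). Capitals mark a pair of alternating heat shock units with 2 bases between them, at positions -104 to -97 in both. Hspa1b is at chr17:34959189-34959488 and Hspa1a at chr17:34972107-34972406, both on the minus strand and written 5′ to 3′.
Hspa1b: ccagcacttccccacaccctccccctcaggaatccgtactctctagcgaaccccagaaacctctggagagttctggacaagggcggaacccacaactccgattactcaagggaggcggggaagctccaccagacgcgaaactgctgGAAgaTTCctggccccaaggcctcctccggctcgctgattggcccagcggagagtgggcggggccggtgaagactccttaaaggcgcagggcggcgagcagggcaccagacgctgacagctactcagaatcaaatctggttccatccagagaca
Hspa1a: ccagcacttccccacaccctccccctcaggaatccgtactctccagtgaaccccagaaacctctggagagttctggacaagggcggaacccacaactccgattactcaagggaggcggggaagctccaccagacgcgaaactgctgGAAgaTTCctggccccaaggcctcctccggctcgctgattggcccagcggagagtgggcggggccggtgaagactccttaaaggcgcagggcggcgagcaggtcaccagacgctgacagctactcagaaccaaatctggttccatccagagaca

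Hspa8 was the large constitutive pool beside them. Its product folds nascent proteins and strips clathrin coats. It was at 1920, 2860 and 2145 TPM in replicates 1, 2 and 3, again with replicate 2 highest. The summed inducible copies amounted to 0.318, 1.93 and 0.247% of the Hspa8 level in these libraries, a log2 ratio of -7.55 ± 1.62. Hspa8 itself was 1.53 times as high in replicate 2 as in replicate 1 (95% interval 1.51 to 1.55) and 1.38 times as high as in replicate 3 (1.36 to 1.40) by CPM. Its reads are also shared, since 38.6% of its windows occur elsewhere, mostly in Gm15459. The second table held 526, 602 and 497 counts for Hspa8, which is 1.24% of the estimated counts of the first, and gave replicate 2 over the next library as 1.12. The other cytosolic Hsp70 of the list, Hspa14, works with the J protein Dnajc2 on the ribosome. Hspa14 differed little, at 99.0, 102 and 101 TPM in replicates 1, 2 and 3, while Dnajc2 was at 47.2, 39.8 and 33.8 TPM and was highest in replicate 1.

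Both cytosolic Hsp90 genes were abundant, and the inducible copy was the lower. Hsp90aa1, the inducible Hsp90, was at 291, 385 and 318 TPM in replicates 1, 2 and 3. Hsp90ab1, its constitutive relative, was at 875, 1003 and 899 TPM. By gene-level TPM, the log2 ratio of the inducible to the constitutive gene was -1.49 ± 0.10, the steadiest of the 4 pairs compared. Hsp90aa1 was at 33.2, 38.4 and 35.3% of Hsp90ab1. Of the Hsp90aa1 TPM, however, 34.8 ± 8.78% was assigned to a transcript of 711 bases. The transcript with the largest mean share, of 2852 bases, was at 100, 164 and 99.8 TPM in replicates 1, 2 and 3. That of Hsp90ab1 was at 736, 839 and 765 TPM. The ratio thus depends on which transcripts are counted. By CPM, replicate 2 exceeded the next library 1.48-fold for Hsp90aa1 and 1.13-fold for Hsp90ab1. The second table gave 1.22-fold for Hsp90aa1, and there Hsp90ab1 was highest in replicate 3, with replicate 2 at 0.952 times it. For Hsp90aa1, 47.5% of windows occur in other genes, chiefly Gm12346, against 3.44% for Hsp90ab1.

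Among the Hsp110 proteins, large Hsp70 relatives that act as exchange factors, the inducible member was the more abundant. Hsph1, also known as Hsp105, was at 65.6, 113 and 74.6 TPM in replicates 1, 2 and 3. Constitutive Hspa4 was at 25.8, 23.8 and 16.7 TPM, with replicate 3 lowest. The log2 ratio of Hsph1 to Hspa4 was 1.92 ± 0.50, and Hsph1 stood above Hspa4 in each library. By CPM, Hsph1 in replicate 2 was 1.66 times its level in replicate 1 (95% interval 1.58 to 1.74) and 1.44 times that in replicate 3 (1.37 to 1.51). Hspa4l, a further Hsp110 gene, was at 30.8, 34.4 and 32.2 TPM.

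The start region of Hsph1 is shown because it holds both 2-unit and 3-unit heat shock elements, at -54 to -47 and at 16 to 28. It lies at chr5:149636266-149636565 on the minus strand. Capitals mark the units. RefSeq lists a further start for this gene 21 bases away, which places the same elements at other positions.
Hsph1: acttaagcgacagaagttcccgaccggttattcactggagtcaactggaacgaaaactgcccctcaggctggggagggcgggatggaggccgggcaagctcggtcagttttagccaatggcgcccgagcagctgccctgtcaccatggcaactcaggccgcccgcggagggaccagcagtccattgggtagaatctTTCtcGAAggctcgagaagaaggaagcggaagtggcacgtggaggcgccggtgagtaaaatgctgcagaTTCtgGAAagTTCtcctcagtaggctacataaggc

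Of the J proteins, inducible Dnajb1 was also highest in replicate 2. Dnajb1, also known as Hsp40, was at 66.6, 105 and 62.9 TPM in replicates 1, 2 and 3. Dnaja2, its constitutive counterpart here, was at 147, 147 and 129 TPM. The log2 ratio of Dnajb1 to Dnaja2 was -0.89 ± 0.35. Of the Dnaja2 TPM, however, 38.3 ± 1.12% was assigned to a transcript of 507 bases that keeps an intron. The protein-coding Dnaja2 transcript alone was at 90.9, 89.0 and 81 TPM in replicates 1, 2 and 3. Dnajb1 was thus above it in replicate 2 and below it in replicates 1 and 3. Replicate 2 held 1.62 times the Dnajb1 CPM of replicate 1 (95% interval 1.54 to 1.70) and 1.71 times that of replicate 3 (1.62 to 1.80). Both of its start regions in the table lacked a 2-unit element, which says only that these letters are not in those windows.

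Of the constitutive J proteins, Dnajc7, which binds both Hsp70 and Hsp90, was the highest at 498, 559 and 553 TPM in replicates 1, 2 and 3. Dnajb6, a suppressor of protein aggregation, was at 157, 155 and 164 TPM, and Dnajb2 was at 26.1, 30.1 and 27.5 TPM. The 3 libraries lay close together for each of them. Dnaja1 and Dnajb4, cytosolic J proteins placed in neither the inducible nor the constitutive class, were both highest in replicate 2. Dnaja1 was at 260, 420 and 265 TPM in replicates 1, 2 and 3. Dnajb4 was at 7.17, 10.6 and 7.32 TPM.

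Of the remaining inducible members, Bag3 was not highest in replicate 2 and Hspb1 was too low to place. Bag3, an exchange factor linked to selective autophagy and a known Hsf1 target, was at 10.7, 9.16 and 9.82 TPM in replicates 1, 2 and 3, so that replicate 2 was the lowest. By CPM, its ratio of replicate 2 to replicate 1 was 0.883 (95% interval 0.757 to 1.03). Bag1, its constitutive relative, was at 13.8, 11.6 and 10.7 TPM. Hspb1, the small heat shock protein Hsp25, was at 0.81, 1.12 and 0.49 TPM, from 9.12, 13.4 and 4.94 estimated counts. At that depth no difference between libraries was detectable for Hspb1, and 48.8% of its windows also occur in the pseudogene Hsp25-ps1.

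The median of the 7 inducible members was 10.7, 44.3 and 9.82 TPM in replicates 1, 2 and 3. The median of the 10 constitutive members was 123, 124 and 115 TPM. On the log2(TPM + 0.1) scale, the inducible minus the constitutive median was -3.49 in replicate 1, -1.46 in replicate 2 and -3.52 in replicate 3, a mean difference of -2.82 ± 1.18. Inducible members were below constitutive ones by median in every library, and the gap was narrowest in replicate 2. With 7 genes the median is the value of 1 gene, here Bag3 in replicates 1 and 3 and Hspa1b in replicate 2. The narrower gap thus goes with a change of the middle gene, and Bag3 itself was lowest in replicate 2. The size of this gap rests on which genes count as inducible: with a wider list of 17 genes it was -0.54. Without replicate 2 it was -3.51.

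**Figure D2:**
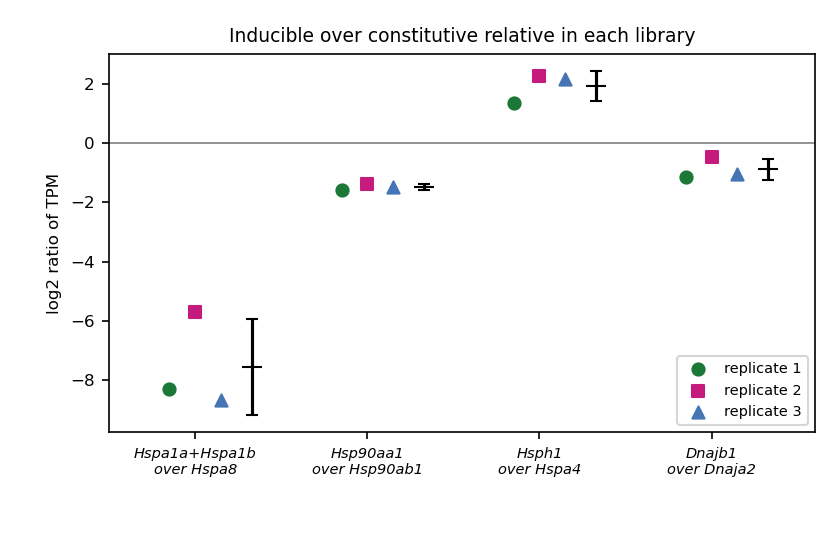
Log2 ratio of TPM of each inducible gene to its constitutive relative, 1 point for each library, with the mean and SD of the 3 libraries to the right of each set. The Hsp70 pair spans from -8.66 to -5.70, the Hsp90 pair stays near -1.49, and Hsph1 over Hspa4 is above 0 in each library.

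The Hsp90 cochaperones were expressed at moderate to high levels. Stip1, which joins Hsp70 to Hsp90, was at 169, 210 and 174 TPM in replicates 1, 2 and 3. Ahsa1, which stimulates the Hsp90 ATPase, was at 155, 185 and 166 TPM, and the Hsp90-binding protein Chordc1 at 127, 178 and 134 TPM. Cacybp, which binds the ubiquitin ligase Siah1, was at 95.8, 109 and 92.2 TPM. These 4 genes were highest in replicate 2. The immunophilins of steroid receptor complexes were not: Fkbp4 was at 56.0, 50.4 and 39.5 TPM, highest in replicate 1, and Fkbp5, a gene known for its induction by glucocorticoid, was at 5.95, 6.03 and 7.46 TPM, highest in replicate 3. By CPM, Chordc1 in replicate 2 was 1.43 times its level in replicate 1 (95% interval 1.37 to 1.49) and 1.36 times that in replicate 3 (1.30 to 1.43).

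Of the 5 mitochondrial chaperones, Hspa9, Dnaja3 and Trap1 varied little, and Hspd1 and Hspe1 were highest in replicate 2. Hspa9, the mitochondrial Hsp70, was at 132 ± 1.5 TPM. Dnaja3, a J protein of the matrix, was at 50.1 ± 1.41 TPM, and Trap1, the mitochondrial Hsp90, at 63.0 ± 1.67 TPM. The chaperonin Hspd1 was at 149, 170.5 and 148 TPM in replicates 1, 2 and 3, and its lid Hspe1 at 145, 167 and 136 TPM. Replicate 2 exceeded the next library 1.17-fold for Hspd1 and 1.19-fold for Hspe1 by CPM, while for Hspa9 the ratio was 1.01. Hspd1 and Hspe1 are neighbours on opposite strands of chromosome 1. Of their windows, 39.7 and 18.4% occur elsewhere.

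The library with the highest CPM varied among the 6 ER chaperones. Hspa5, the ER Hsp70 also known as BiP, was at 550, 477 and 524 TPM in replicates 1, 2 and 3. Hsp90b1, the ER Hsp90, was at 326, 332 and 336 TPM. Among the ER J proteins, Dnajb11 was at 123, 106 and 125 TPM, Dnajc3 at 35.2, 26.1 and 25.2 TPM and Dnajb9 at 9.28, 10.1 and 8.68 TPM. Hspa13, an Hsp70 relative of microsomes, was at 14.3, 12.7 and 13.8 TPM. By CPM, replicate 1 was the highest library for 3 of these 6, replicate 2 for 2 and replicate 3 for 1. Replicate 2 was the lowest library for 3 of the 6. Of the 14641 genes tested, 5003, 4826 and 4812 were highest in replicates 1, 2 and 3, and 5175 were lowest in replicate 2. Nothing is read from the counts of these 6. Hspa5 in replicate 2 was at 0.914 times its CPM in replicate 1 (95% interval 0.895 to 0.934), and Dnajc3 at 0.760 times (0.715 to 0.809).

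Hsf1, the main factor of the heat shock response, was at 91.5, 82.3 and 84.7 TPM in replicates 1, 2 and 3, so that its mRNA was lowest in replicate 2. Hsf2, a related factor, was at 2.96, 3.29 and 1.91 TPM, from 64 to 111 counts. Hspa2, an Hsp70 known from testis, was at 2.75 ± 0.02 TPM.

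**Figure D3:**
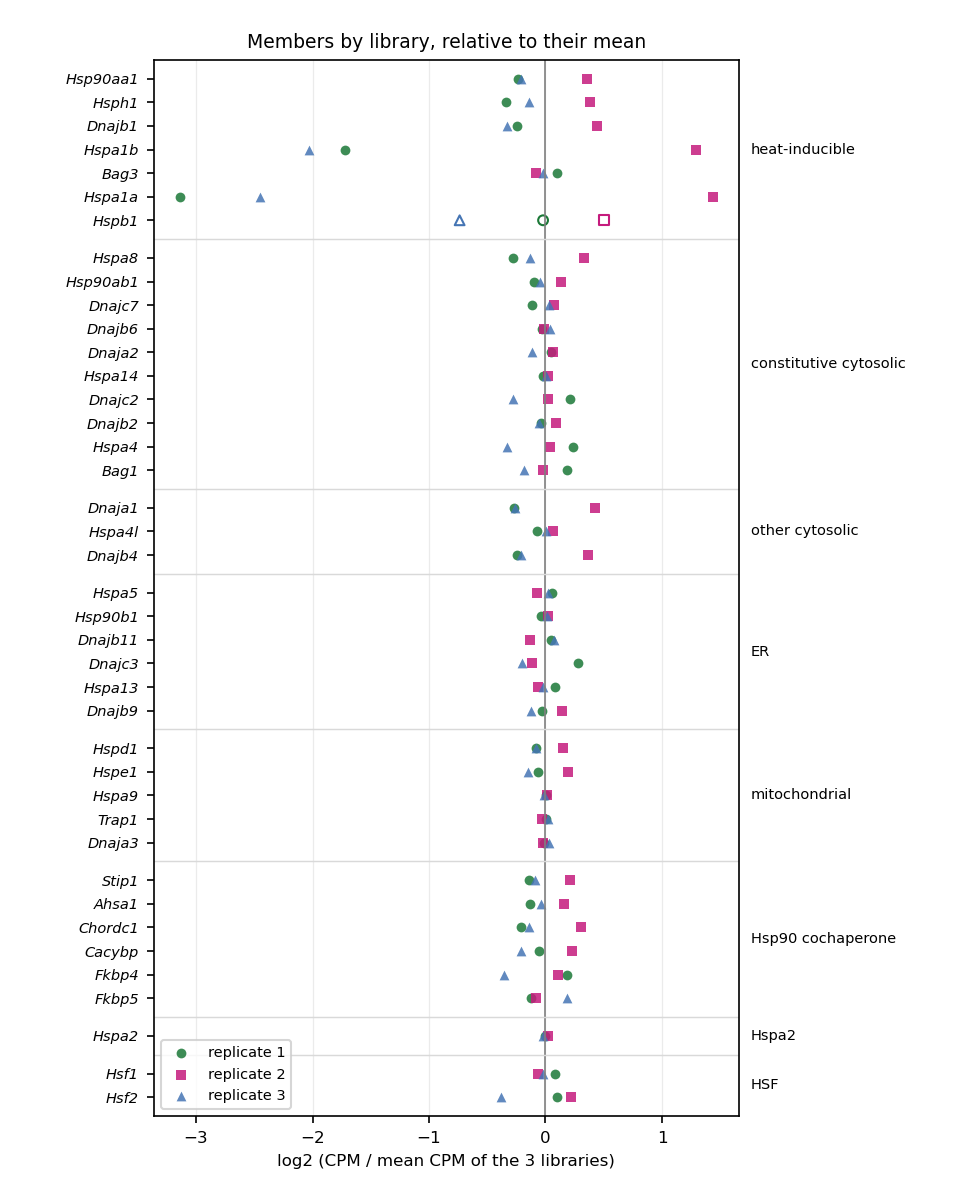
CPM of each member in each library relative to its mean over the 3 libraries, on a log2 scale. Open symbols mark Hspb1, which had under 30 counts in all. Replicate 2 lies to the right for 5 of the 6 inducible members tested and for Dnaja1 and Dnajb4, and to the left for Hspa5, Dnajb11 and Bag3.

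Counts over the members are given beside those over all genes. Pearson's chi-square test of homogeneity asked for each of the 14641 genes with at least 30 counts in all whether the libraries differed by more than counting noise, with Benjamini-Hochberg adjustment over all of them. Of the 39 members tested (all but Hspb1), 25 passed at an adjusted p under 0.05, beside 44.9% of all genes and 55.4% of the genes that averaged at least 100 counts. Without replicate 2, 11 of the 39 passed, beside 27.7% of all genes. Replicate 2 was the highest library by CPM for 25 of the 39, beside 33% of all genes. The highest library exceeded the lowest 1.22-fold by median over the 39 members and 1.22-fold over all genes tested. Over the genes that averaged at least 100 counts, that median was 1.15-fold. Since the members were selected with this contrast in view, nothing is read from these values. Over all genes tested, the median log2 ratio of replicate 2 to replicate 1 was -0.02.

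A stricter count singled out members at least 1.25-fold above both other libraries in replicate 2. It held 9 of the 39: Hspa1a, Hspa1b, Hsph1, Dnajb1 and Hsp90aa1 of the inducible class, Hspa8 of the constitutive class, and Dnaja1, Dnajb4 and Chordc1. The background was 6.5% of all genes tested and 2.44% of genes that averaged at least 100 counts, and again the choice of members used this contrast. Just inside the threshold was Chordc1 at 1.36-fold and just outside it was Stip1 at 1.23-fold. The 9 comprised 5 of the 6 inducible members tested and 1 of the 10 constitutive members. The same rule was met by 7 members in the second table, of which 6 were among these 9: Hspa8 (1.12-fold), Hsp90aa1 (1.22-fold) and Chordc1 (1.18-fold) did not meet it there, and Hsf2 did. Of the tested genes listed there, 5.18% met the rule.

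Other folding genes were taken as lists from the wider machinery. Of 59 such genes, 52 could be tested, and 30 of the 52 (57.7%) passed the chi-square test. The share was 44.9% of all genes tested and 55.4% of those averaging at least 100 counts. In replicate 2, 0 of the 52 were 1.25-fold above both other libraries, beside 6.5% of all genes and 2.44% of those averaging at least 100 counts, and nothing is read from the 0. Replicate 2 was the highest library by CPM for 33% of all genes tested. It was so for all 8 subunits of the cytosolic chaperonin CCT, which folds actin and tubulin, but by small amounts. The highest library was 1.01 to 1.16 times the lowest. By TPM, Cct2, Cct3 and Cct7 were highest in replicate 3. Cct8 was the most abundant of them, at 365, 387 and 385 TPM in replicates 1, 2 and 3, and Cct4 the most variable, at 199, 224 and 196 TPM. Of 6 prefoldin subunits, which pass clients to CCT, 4 were highest in replicate 2. Pfdn5 was the most abundant of these, at 400.2, 476 and 453 TPM, and Pfdn1 varied most, at 83.0, 66.3 and 73.0 TPM.

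Of 13 further cytosolic cochaperones, 7 were highest in replicate 1 and 5 in replicate 2. Libraries were ordered by CPM in this list and in those that follow. Of the 14641 genes tested, 5003 were highest in replicate 1 and 4826 in replicate 2. Cdc37, which brings kinases to Hsp90, was the most abundant at 276, 270 and 293 TPM in replicates 1, 2 and 3, and Ptges3, the Hsp90 cochaperone p23, varied most at 78.0, 77.3 and 52.7 TPM. Of 11 ER folding genes, 6 were highest in replicate 1 and 2 in replicate 2. Pdia3, a protein disulfide isomerase, led them at 645, 510 and 462 TPM, and Creld2 varied most at 27.6, 19.6 and 18.6 TPM. Of 7 unfolded protein response factors, 4 were highest in replicate 2. Herpud1 was the most abundant at 116, 120 and 122 TPM, and Xbp1 varied most at 64.8, 46.8 and 38.4 TPM. Of 6 mitochondrial folding genes, 1 was highest in replicate 2. The protease subunit Clpp led that list at 69.6, 65.0 and 65.7 TPM, and the protease Lonp1 varied most at 9.88, 6.61 and 5.20 TPM. Of 8 small heat shock protein genes other than Hspb1, Hspb6 alone reached 1 TPM in every library, at 3.76, 2.64 and 3.04 TPM.

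**Figure D4:**
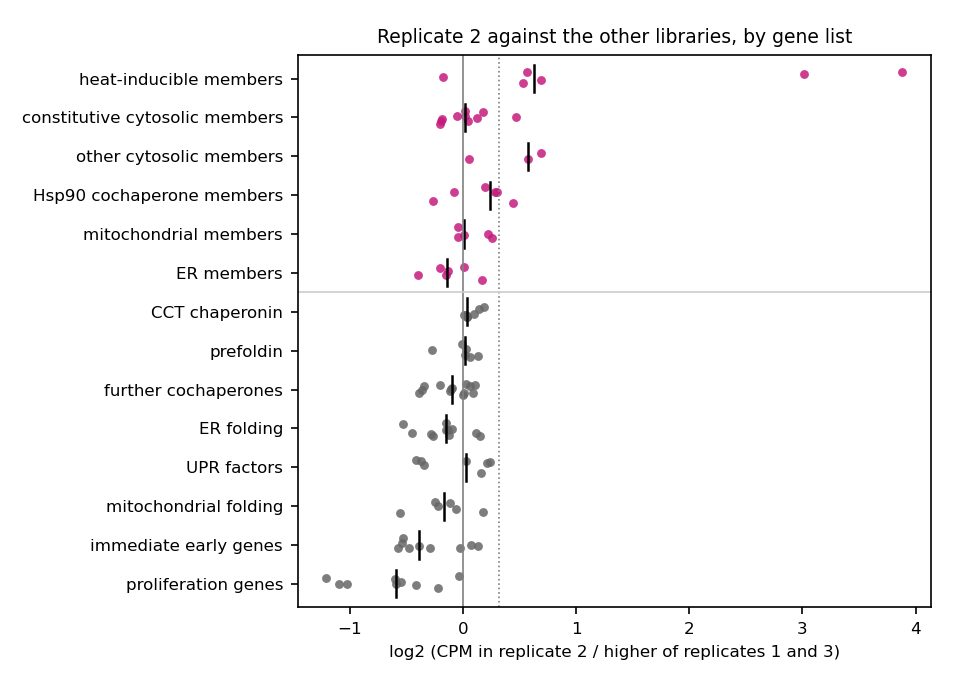
Log2 ratio of CPM in replicate 2 to the higher of replicates 1 and 3 for each tested gene of a list, with the list's median as a bar and a dotted line at 1.25-fold. Hspa2, the heat shock factors and the small heat shock proteins are not drawn. No gene of the grey lists passes the dotted line, and all 9 proliferation genes lie left of 0.

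Other gene lists also differed between the libraries, and their part in the differences of the chaperones was not tested. By CPM, 5175 of the 14641 genes tested were lowest in replicate 2, 4826 were highest there and 5003 were highest in replicate 1. The 9 proliferation markers were all lowest in replicate 2, with summed levels of 535, 407 and 460 TPM in replicates 1, 2 and 3. The 6 T cell markers were all lowest there too by CPM, at 8678, 7874 and 8833 TPM in sum. By TPM, Cd3d was lowest in replicate 3. The 6 erythroid markers were all highest in replicate 2, at 910, 1272 and 1148 TPM in sum. The 10 immediate early genes, which respond within minutes to stimulation and to handling of cells, summed to 1198, 968 and 945 TPM, and 5 of the 9 that were tested were highest in replicate 1. Junb was the most abundant of them at 563, 393 and 388 TPM, and Dusp1 varied most at 26.5, 17.8 and 13.2 TPM.

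Transcript tables showed where the reads of a gene fell among its annotated forms. The 40 members have 227 annotated transcripts, and 25 members had 90% or more of their TPM in protein-coding ones. In 12 members the top transcript held under 60%: Hsp90aa1, Hsph1, Hspa8, Hspa4, Dnajb2, Dnajb6, Dnajc7, Dnaja1, Hspa4l, Chordc1, Hsf1 and Hsf2. Dnajc7 was the only member led by a non-coding form, and its protein-coding share was 27.6 ± 1.41%, so that most of its high TPM was assigned to transcripts with no annotated protein. The gene-level TPM of Hspa4 likewise included other forms, with a protein-coding share of 41.4 ± 3.72%. For Hspa8 the protein-coding share was 61.9 ± 0.81%, and for Hsp90aa1 it was 73.8 ± 3.55%, against 84.6 ± 0.57% for Hsp90ab1.

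Transcripts with a retained intron, which keep an intron that is normally spliced out, took 4.95% of Hsph1 TPM in replicate 1, 12.5% in replicate 2 and 4.81% in replicate 3. Chordc1 had 11.2, 14.3 and 10.1%, and Hspa4 19.4, 28.7 and 17.7%. This share was highest in replicate 2 for all 3 genes. Over the 25 members with such transcripts it was highest in replicate 2 for 16, beside 15 of 32 other chaperone genes and 45.6% of 5903 genes of all kinds. The direction was not uniform: for Hspa8 the share was 12.1, 11.2 and 6.95%, and for Hsp90aa1 28.6, 27.9 and 22.1%, highest in replicate 1 in both.

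Promoter sequence itself had not been used to choose the members. They were picked as heat shock proteins and cochaperones, though, and the heat shock response acts through heat shock elements. Shares of members with such elements, or with ER stress elements, are therefore descriptions and no independent result. RefSeq start regions of 250 bases before to 50 after the start were at hand for 33 of the 40 members. Those of Hsp90aa1, Hspa8, Hsp90ab1, Dnajc2, Hspa13, Hspa9 and Hsf1 were not used here. The search took alternating GAA and TTC units with any 2 bases between them, on either strand, as a heat shock element. An element of 3 such units occurred in 5 of the 33 members (Hsph1, Dnajb6, Hspd1, Hspe1 and Chordc1), or 15.2%, beside 0.662% of 27025 genes in the table. Elements of 2 units, which every 3-unit element also contains, occurred in 12 of the 33, or 36.4%, beside 17% of all genes. Besides the 5 genes with 3 units, these were Hspa1a, Hspa1b, Hspb1, Bag3, Dnaja1, Dnajb4 and Fkbp4.

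Elements of 5 further members are shown as windows of 60 bases with the units in capitals, to set the 3-unit elements beside the 2-unit ones of Dnaja1 and Dnajb4. Chordc1 is at chr9:18292239-18292298 on the plus strand and holds 5 alternating units across its start. Hspe1 is at chr1:55088035-55088094 on the plus strand, and its element at 55088059 to 55088076 is the one counted for Hspd1 as well, read from the other strand. Dnajb6 is at chr5:29735828-29735887 and Dnaja1 at chr4:40722317-40722376, both on the plus strand. Dnajb4 is at chr3:152193827-152193886 on the minus strand.
Chordc1: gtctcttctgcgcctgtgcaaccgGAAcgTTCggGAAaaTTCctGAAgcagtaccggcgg
Hspe1: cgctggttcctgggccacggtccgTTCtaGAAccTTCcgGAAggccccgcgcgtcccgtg
Dnajb6: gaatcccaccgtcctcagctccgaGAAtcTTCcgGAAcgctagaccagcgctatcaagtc
Dnaja1: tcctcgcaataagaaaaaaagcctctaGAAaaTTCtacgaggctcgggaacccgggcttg
Dnajb4: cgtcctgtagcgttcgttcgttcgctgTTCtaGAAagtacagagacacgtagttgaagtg

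Set beside the libraries, a 2-unit element was present in 6 of the 7 members that were 1.25-fold above in replicate 2 and had a start region (Hspa1a, Hspa1b, Hsph1, Dnaja1, Dnajb4 and Chordc1, but not Dnajb1). It was present in 5 of the 23 other members with a mean count of 100 or more. This split uses the contrast that was known when the members were chosen, and Hspa1a reached that depth only through replicate 2. Nothing is therefore read from these counts of members. Over all genes of that depth, the element occurred in 27 of 138 genes that were 1.25-fold above in replicate 2 (19.6%) and in 1058 of 7459 others (14.2%). The 138 include the 7 members, 6 of them with the element, so nothing is read from these shares either. Hspd1, Hspe1 and Dnajb6, with 3 units, lay under 1.25-fold, and Bag3, with 2, was lowest in replicate 2. A match is a description of letters, and binding was not measured.

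ER stress elements fell on ER members. The first form, CCAAT followed by 9 bases and CCACG on either strand, was found in Hspa5, Hsp90b1 and Dnajc3, or 3 of the 33 members, beside 0.137% of all genes. Hsp90b1 held it at -212 to -194 and again, on the other strand, at -107 to -89. Only the match at -212 to -194 lies in the window shown for Hsp90b1. The second form, ATTGG followed by 1 base and CCACG, was found in Dnajb11, beside 0.0444% of all genes. None of these 4 genes held a heat shock element in its window, and none was 1.25-fold above in replicate 2. A TATAAA box on the strand of the gene was found in Stip1 alone among the 33, beside 9.77% of all genes.

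The start region of Hspa5 is shown whole as the contrast to the Hspa1 pair, at chr2:34771840-34772139 on the plus strand. Windows of 60 bases follow for Hsp90b1 at chr10:86705618-86705677 on the minus strand, Dnajc3 at chr14:118937806-118937865 on the plus strand and Dnajb11 at chr16:22857827-22857886 on the plus strand. Capitals mark both ends of each element.
Hspa5: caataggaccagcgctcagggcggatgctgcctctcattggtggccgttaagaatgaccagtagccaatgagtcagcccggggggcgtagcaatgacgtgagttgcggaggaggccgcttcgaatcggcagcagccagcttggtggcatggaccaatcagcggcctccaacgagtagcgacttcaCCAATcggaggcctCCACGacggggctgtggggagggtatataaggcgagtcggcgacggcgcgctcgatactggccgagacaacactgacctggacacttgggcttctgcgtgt
Hsp90b1: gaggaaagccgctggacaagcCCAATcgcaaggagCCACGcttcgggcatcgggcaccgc
Dnajc3: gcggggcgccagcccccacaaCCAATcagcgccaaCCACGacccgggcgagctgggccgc
Dnajb11: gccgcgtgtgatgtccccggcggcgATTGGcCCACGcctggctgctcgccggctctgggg

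**Figure D5:**
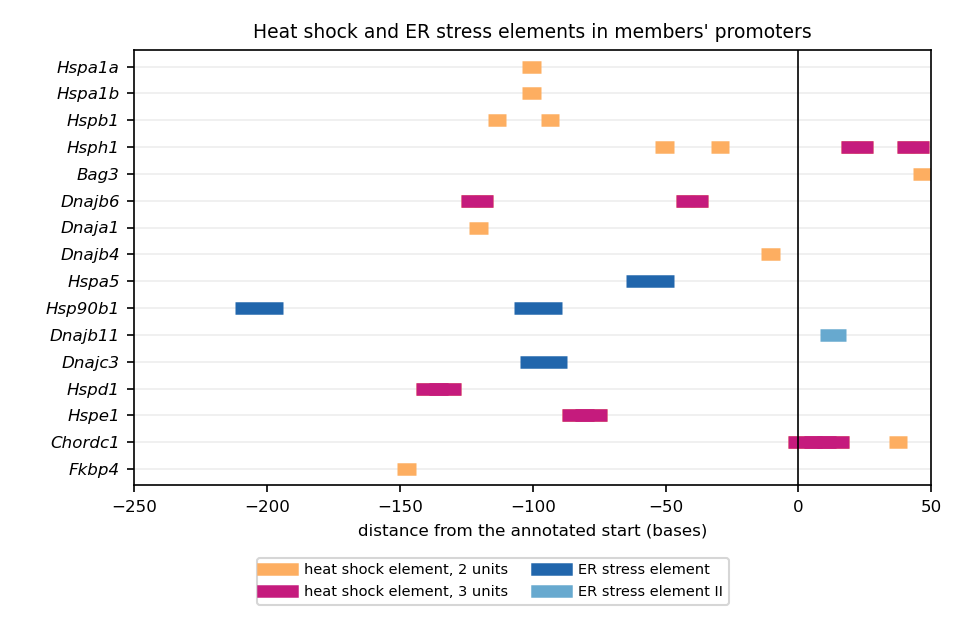
Position of heat shock elements and ER stress elements relative to the annotated start, in bases, in the 16 members that hold one. For Hsph1 and Dnajb6, elements fall in the windows of several RefSeq starts and are drawn from each, and 2-unit elements inside a 3-unit element are covered by it. ER stress elements lie on Hspa5, Hsp90b1, Dnajc3 and Dnajb11, which hold no heat shock element.

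How far reads can be assigned differs between members. No 50-base window of 15 members occurs in another gene, among them Hsph1, Hspa4, Dnaja2, Dnajb4, Hspa5 and Hsf1. Over 10% of windows are shared in 9 members: Hspa1a, Hspa1b, Hspb1, Hsp90aa1, Hspa8, Hspd1, Hspe1, Dnajb6 and Dnaja1. For Dnaja1 the share was 11.9%, mostly with Gm15542, which itself had 70.8, 117 and 74.9 CPM in replicates 1, 2 and 3, the same order as Dnaja1. Of the 9 members 1.25-fold above in replicate 2, Hsph1 and Dnajb4 share no window with another gene, and Dnajb1 and Chordc1 share under 1%.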

How the data were processed

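Polyadenylated RNA of 1 biosample was measured in 3 libraries. Per the labels, fragments came from shearing, and the libraries are technical replicates. Gene and transcript tables on mm10 with GENCODE M21 hold estimated counts, in which the authors divided reads that fit several transcripts among them, per the file headers, and TPM and FPKM values that the authors scaled by length and depth. No source used here names the aligner, quantifier version or strand setting. A second gene table that the authors deposited gives whole-number counts on GENCODE M4 (22457 genes), by a counting method not stated, and totals 29.3 to 31.1% of the estimated counts.

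Rows that name no gene (0.189 to 0.271% of all counts) were left out. Estimated counts were rounded for the chi-square test; log2 TPM used a pseudocount of 0.1. A quasi-likelihood test was not used because there is 1 group. The limit that a count of 0 allows (3 counts) was 0.141 to 0.162 CPM.

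The members, lists, classes and naming rule were chosen with earlier results of these data known. Every member is named. Of the other lists, the most abundant gene and the one varying most are named, and Lyz2, S100a8, S100a9, Hspb6, Gm15542 and Igkv1-135 were named after their values were seen. The 5 genes with the largest library ratio are named too. Alternatives were TMM and DESeq2 scaling, count filters, a deviance statistic, the second table, FPKM, pseudocounts, other lists and thresholds, and leaving out each library. Scaling used edgeR 4.0.16 and DESeq2 1.42.0 in R 4.3.3; tests, alignments and plots used scipy 1.17.1, statsmodels 0.14.6, Biopython 1.88 and matplotlib 3.10.9 in Python 3.11.15.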

Additional observations from a re-analysis of the deposited data

How the results depend on the processing

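The members that differed between libraries numbered 25 of 39 with all 3 libraries, beside 44.9% of all genes. Leaving out replicates 1, 2 and 3 in turn gave 22, 11 and 24 of 39, beside 30.3, 27.7 and 34% of all genes. The other chaperone genes that differed numbered 30, and 23, 13 and 24 in the same order, beside the same shares of all genes. The ratio of the highest to the lowest library for Hspa1a plus Hspa1b was 10.7, ranged from 1.14 without replicate 2 to 10.7, and was 9.17 in the second table. The inducible minus constitutive median was -2.82 and became -0.54 with the wider list of 17 genes. The count of members above both other libraries in replicate 2 was 9 at 1.25-fold, 16 at 1.1-fold (16.2% of all genes) and 4 at 1.5-fold (2.36%); these thresholds, and its scaling and table alternatives, were chosen after seeing the data. By the measure set for each result (1.5 times for a count, the SD for a value, the 95% interval for the Hspa1 ratio), 53 alternatives stayed and 7 moved. The cause was not tested. No paired analysis was possible because there is only 1 group. The second table called 17 of 38 members, beside 23.2% of all genes, with 21 highest in replicate 2, beside 32.3%, and holds fewer counts for abundant members, such as 1.24% of those of Hspa8. Depth limits Hspb1 most, and counts do not cover preparation differences between libraries.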
